A study of Rattus norvegicus with 12 samples.

Results

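Calvarial bone cut with an Er:YAG laser was compared with calvarial bone that was not cut, in the rat, at 72 h. The calvaria is the flat bone of the skull roof, and the Er:YAG laser is an infrared laser that removes mineralised tissue. The comparison holds 8 of the study's 12 arrays, the 4 labelled laser and the 4 labelled control, taken by their titles. The other 4 arrays, of bone drilled with a rotating bur, are used here only to show where laser differs from another way of cutting. All rats were 10 weeks old, and the labels give no strain, sex or genotype. In the laser group a rectangular defect of 8 by 3 mm was cut in 3 strokes with a chisel-shaped contact tip at a feed of about 2 mm/s. The panel setting was 220 mJ per pulse at 20 Hz, which left 127 mJ per pulse and 20.2 J/cm2 at the tip, in pulses of 200 µs. The bur group had a defect of the same size, made with a few strokes at about 0.75 mm/s. Control bone lost its periosteum without being ablated, per the treatment protocol, while the series design calls it non-treated, so whether the control animals had surgery is not settled by these sources. Nothing in the labels says that each array stands for an animal of its own. The p-values therefore cover just the spread between arrays, part or all of which may be technical.

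Cut bone passes through clotting, entry of phagocytes, and then laying down of a fibrous and bony matrix. Damaged tissue releases chemokines that draw monocytes, plasminogen activators dissolve fibrin, and cells that build matrix enlarge the endoplasmic reticulum and the vesicle traffic that carries collagen out of it. Calvarial bone also holds marrow spaces with blood-forming cells and fat cells, and borders on muscle, skin and meninges, all of which can enter a bulk sample.

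Each value is a log2 processed spot intensity, scaled by subtracting the 75th percentile of its array, so a difference of 1 is a 2-fold difference in signal. limma was fitted on all 12 arrays, and a gene is said to rise or fall where its adjusted p was under 0.05. Of 22718 genes tested, 9.26% were called higher with laser and 13% lower, 22.3% in all, and the median difference of all genes was 0.02. The 4 laser and 4 control arrays did not overlap for 19% of genes, with laser above in 8.87% and below in 10.1%. On single arrays, 58.1% to 67.0% of probes were well above background. All control arrays lay on 1 slide and all laser and bur arrays on another, so slide and group cannot be told apart in laser against control. Markers of erythroid cells, summed on a linear scale, were 725 to 1310 on control and 386 to 702 on laser arrays. A marrow score, the mean of erythroid, neutrophil and B cell lists, was 1.34, 0.79, 0.14 and 2.10 on control replicates 1 to 4 and 0.16, -1.01, -0.91 and -0.44 on laser replicates 1 to 4. Control and laser arrays barely overlapped on this score, at control replicate 3 and laser replicate 1. With this score as a covariate only 2 genes rose and none fell in limma. Because the score largely follows the groups, the loss of most calls was likely in advance. That fit cannot tell marrow content and group apart. In bulk bone, fewer cells of a type and less RNA per cell cannot be told apart. The counts of calls also leaned on single arrays: they were 449 higher and 796 lower without control replicate 1, 517 and 801 without laser replicate 2, 529 and 998 without laser replicate 3, 831 and 1143 without control replicate 4, and 3861 and 4133 without control replicate 3.

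Outside the bone and marrow lists, the 15 largest rises were of genes for chemokines, receptors of myeloid cells, transporters and adhesion proteins. They were Ccl7, Ccl12, Cdh22, Car12, Ccl2, Panx3, Ccl9, Tppp3, Trem2, Crabp2, Havcr2, Slc2a1, Ccl4, Nsg1 and Plau, with differences of 3.17 down to 2.04. All 15 were well above background on all 8 arrays, and no laser array overlapped with a control array, as the rule for naming them required. The probes of Ccl2, Ccl7 and Ccl12, chemokines that attract monocytes, lie close together on chromosome 10 (build rn4 per the file headers), at 70257919 to 70257978, 70268674 to 70268733 and 70322447 to 70322506. Those of Ccl9 at 71645984 to 71646043 and of Ccl4 at 71760265 to 71760324, both ligands of receptors on macrophages and other leukocytes, form a second group on that chromosome.

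**Figure D1:**
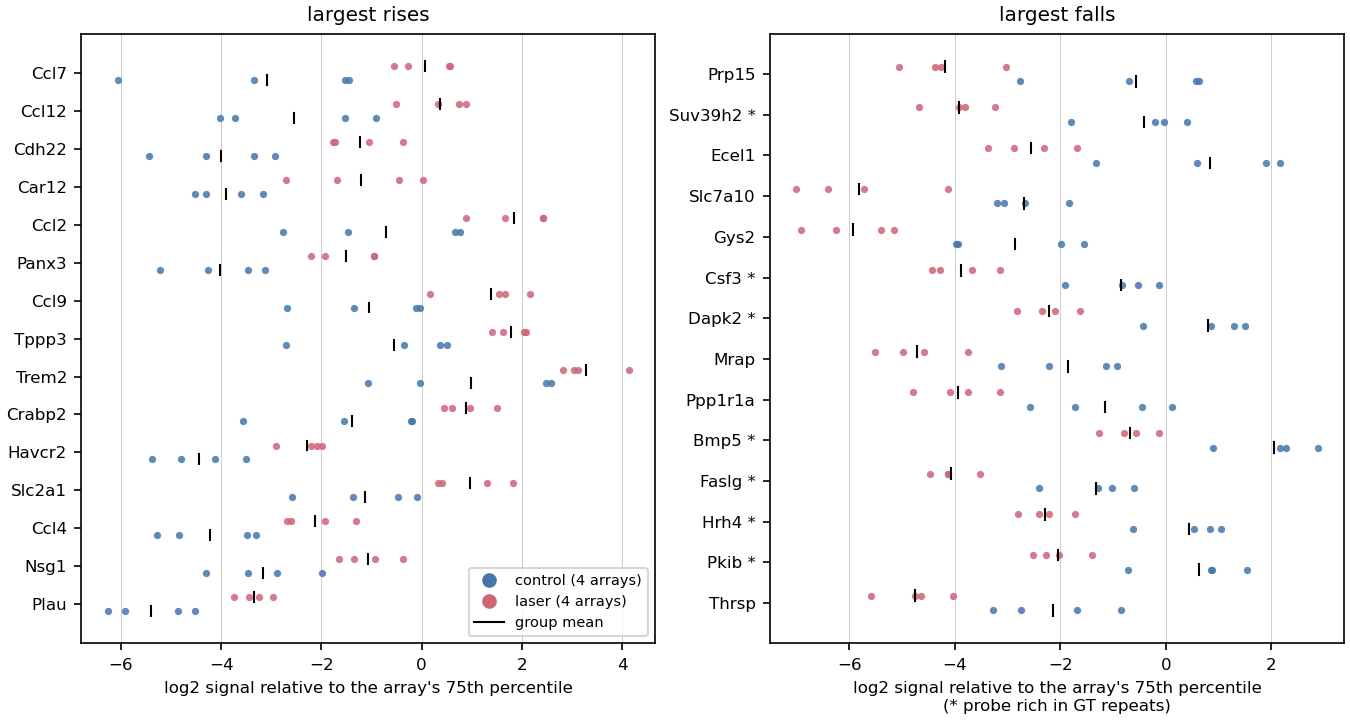
Log2 signal relative to the array's 75th percentile for the 15 largest rises (left) and 14 of the 15 largest falls (right) of laser against control. Each point is an array (blue control, red laser, 4 of each) and each bar a group mean, and an asterisk marks genes whose probe is rich in GT repeats. The groups do not overlap for any gene shown.

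Chemokine signal varied more among the controls than among the laser arrays. The SD was 2.17 against 0.56 for Ccl7, 1.25 against 0.86 for Ccl9 and 0.99 against 0.65 for Ccl4. Ccl7 was -3.34, -1.45, -1.52 and -6.07 on control replicates 1 to 4 and 0.56, 0.54, -0.55 and -0.27 on laser replicates 1 to 4 (difference 3.17, SE 0.86, adjusted p = 0.0275). Controls 1 and 4 were lowest, the arrays with the highest marrow scores. Ccl9 was -1.34, -0.04, -0.11 and -2.69 in control and 1.55, 1.67, 0.17 and 2.17 in laser bone (difference 2.44, SE 0.56, adjusted p = 0.0176). Laser replicate 3 lay just above control replicates 2 and 3. Ccl4 was -4.85, -3.48, -3.30 and -5.29 in control and -1.93, -1.30, -2.61 and -2.68 in laser bone (difference 2.10, SE 0.52, adjusted p = 0.0216). Controls 1 and 4 were lowest for Ccl12 too. This gene was at -3.72, -1.53, -0.92 and -4.03 on the control arrays, against -0.51 to 0.88 with laser. None of the 5 chemokines differed between laser and bur: the interval of laser minus bur was -2.45 to 1.32 for Ccl7, -1.63 to 1.27 for Ccl12, -2.29 to 0.93 for Ccl2, -1.16 to 1.27 for Ccl9 and -1.46 to 0.82 for Ccl4.

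Receptors of myeloid cells rose with them. Havcr2, which encodes the immune checkpoint receptor TIM-3, was -4.80, -3.51, -4.12 and -5.38 on the control arrays and -2.90, -2.20, -2.09 and -1.98 on the laser arrays (difference 2.16, SE 0.45, adjusted p = 0.0140). All laser arrays lay above the highest control. Trem2, a lipid-sensing receptor of macrophages and osteoclast precursors, was -0.03, 2.58, 2.49 and -1.07 in control and 2.82 to 4.14 in laser bone (difference 2.29, adjusted p = 0.0423). Here control replicates 2 and 3 lay close to the laser arrays, and leaving out any 1 array other than control replicate 2 or 3 ended the call.

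Adhesion, transport and channel genes formed the next group. Cdh22, a cadherin, was -4.31, -2.92, -3.34 and -5.44 in control and -1.76, -0.37, -1.06 and -1.73 in laser bone (difference 2.77, SE 0.54, adjusted p = 0.0111). Car12, a membrane-bound carbonic anhydrase that handles acid and bicarbonate, was -4.53, -3.60, -3.17 and -4.30 against -1.68, -2.71, 0.02 and -0.46 (difference 2.69, SE 0.76, adjusted p = 0.0310). Panx3, a pannexin channel of osteoblasts and chondrocytes, was -5.23, -3.13, -3.47 and -4.27 against -2.20, -0.96, -0.96 and -1.92 (difference 2.52, SE 0.76, adjusted p = 0.0379). For all 3 genes the bur mean lay between control and laser, with laser minus bur at 0.90, 1.22 and 0.98, but each interval of that difference included 0 (-0.28 to 2.08, -0.44 to 2.89 and -0.68 to 2.65). Slc2a1, the glucose transporter GLUT1, was -2.58 to -0.10 in control and 0.33 to 1.82 in laser bone. Nsg1, a protein of endosomal traffic best known in neurons, rose by 2.09 (SE 0.50), and Tppp3, which binds tubulin and marks cells of tendon sheath, rose by 2.33 (SE 0.65). Crabp2, which carries retinoic acid to the nucleus, rose by 2.26 (SE 0.67, adjusted p = 0.0357, or 0.0532 with the replicate block). Of these 15 rises, Cdh22, Havcr2 and Plau passed whichever array was left out, and the other 12 lost the call without at least 1 array. With array weights Ccl2, Trem2 and Crabp2 were at 1.52, 1.35 and 1.44 and did not pass, and Ccl7 was at 2.02 and passed. With normexp background correction Panx3 was at 1.52 and did not pass, while Havcr2, Ccl4 and Plau were at 1.24, 1.09 and 0.69 and did.

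The 15 largest falls split by the letters of their probes. On this array each probe is a stretch of 60 bases, and 6 of the 15 genes were measured by a probe with a GT run, whole pairs of GT or TG in a row, of 8 or more bases. A seventh, Hrh4, has shorter GT runs close together. None of the 15 largest rises had such a run. The stretches below are shown because these letters, not a shared function, are what the genes have in common. They are 30 bases of each probe, 5′ to 3′ as the array files give them, with the longest run of whole pairs in capitals, so that a single G or T beside it stays in lower case. Hrh4 has none in capitals because its longest run of whole pairs is 6 bases.
Suv39h2: ctttatgaaGTGTGTGTGTGTttttaaatc
Csf3: ggataataaaGTGTGTGTGTgcccagtaaa
Dapk2: ggtgtgtaTGTGTGTGTGaatgtgattgga
Bmp5: cggtttGTGTGTGTGTatgtgtgtggcata
Faslg: tgcagaggctgtgtatGTGTGTGTGTGTGT
Pkib: GTGTGTGTGTtttcagtaattttgttatga
Hrh4: gtgtgtatatgtgtgcgtgtgtgcatgtgt
Pdgfa: GTGTGTGTGTGTggtttccttgttttggtt
Cldn15: GTGTGTGTGTGTGTGTGTGTGTGTttaaag

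Per the file headers the probes lie, in build rn4, on chromosome 17 at 85894912 to 85894971 (Suv39h2), chromosome 10 at 87476306 to 87476365 (Csf3), chromosome 13 at 77471319 to 77471378 (Faslg), chromosome 12 at 16173194 to 16173253 (Pdgfa) and chromosome 12 at 20845133 to 20845192 (Cldn15). The array files do not place them in coding sequence or UTR. The genes have unrelated roles: Suv39h2 is a histone methyltransferase, Csf3 the growth factor of neutrophils, Dapk2 a death-associated kinase, Bmp5 a bone morphogenetic protein, Faslg the ligand of the death receptor Fas, Pkib an inhibitor of protein kinase A and Hrh4 a histamine receptor. Suv39h2 was 0.40, -0.21, -1.79 and -0.04 on control replicates 1 to 4 and -3.24, -3.80, -3.93 and -4.69 on laser replicates 1 to 4 (difference -3.51, SE 0.49, adjusted p = 0.00308). Bmp5 was 2.88, 2.17, 0.89 and 2.28 against -0.13, -0.57, -0.79 and -1.26 (difference -2.74, SE 0.41, adjusted p = 0.00402). Faslg was -0.60, -1.28, -2.40 and -1.03 against -3.53, -4.13, -4.13 and -4.48 (difference -2.74, SE 0.36, adjusted p = 0.00244). In each of these genes control replicate 3 was the lowest control and laser replicate 1 the highest laser array. The same held for Csf3, Dapk2, Hrh4 and Pkib, which fell by 3.04, 3.03, 2.73 and 2.69.

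Over all probes, the fall followed the length of the GT run. Among 29775 probes, 11.3% were called lower and 9.05% higher, the median difference was 0.04, and the groups did not overlap for 9.16% in the lower and 8.93% in the higher direction. Probes with a GT run under 6 bases numbered 28517 and had a median of 0.05, and the 122 probes with a run of 8 to 9 bases had a median of -0.29, with 34 lower and 9 higher. At 10 to 15 bases, 35 of 40 probes were lower (median -2.49), at 16 to 23 bases 25 of 25 (median -2.45), and at 24 or more bases 18 of 18 (median -2.39). In all, 83 probes held a run of 10 or more bases: 78 were called lower and none higher, with a range of -3.51 to -0.18. Relative to each probe's mean, their median was 2.43, 1.77, 0.53 and 2.09 on control replicates 1 to 4 and -0.21, -0.75, -0.77 and -1.22 on laser replicates 1 to 4. Bur arrays stood with laser, at -0.92, -0.44, -1.23 and -1.13, and no such probe was called between laser and bur.

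Runs of CA, the complement of GT, went the other way. Of 64 probes with a CA run of 10 or more bases, 31 were called higher and none lower, 62 had a positive difference, and the median was 1.17. Their array medians were -1.25, -0.73, 0.15 and -1.37 in control and 0.37, -0.11, 0.67 and 0.67 in laser bone, so control replicate 3 lay among the laser arrays here, while for GT runs it lay above them. Other repeats of 10 or more bases showed smaller differences between the groups. The median was -0.23 for 26 GA-run probes, -0.57 for 22 CT-run probes and -0.13 for 19 AT-run probes. GA-run probes still moved with single arrays. Their array medians were 1.18, -1.58, 0.47 and -1.47 on laser replicates 1 to 4, against -0.09, -0.32, 0.28 and -0.21 on control replicates 1 to 4. On the bur arrays they were 0.08, -0.30, 1.64 and 0.04. The slide moved with the GT and CA differences as it did with every other difference, and its part in them was not tested.

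**Figure D2:**
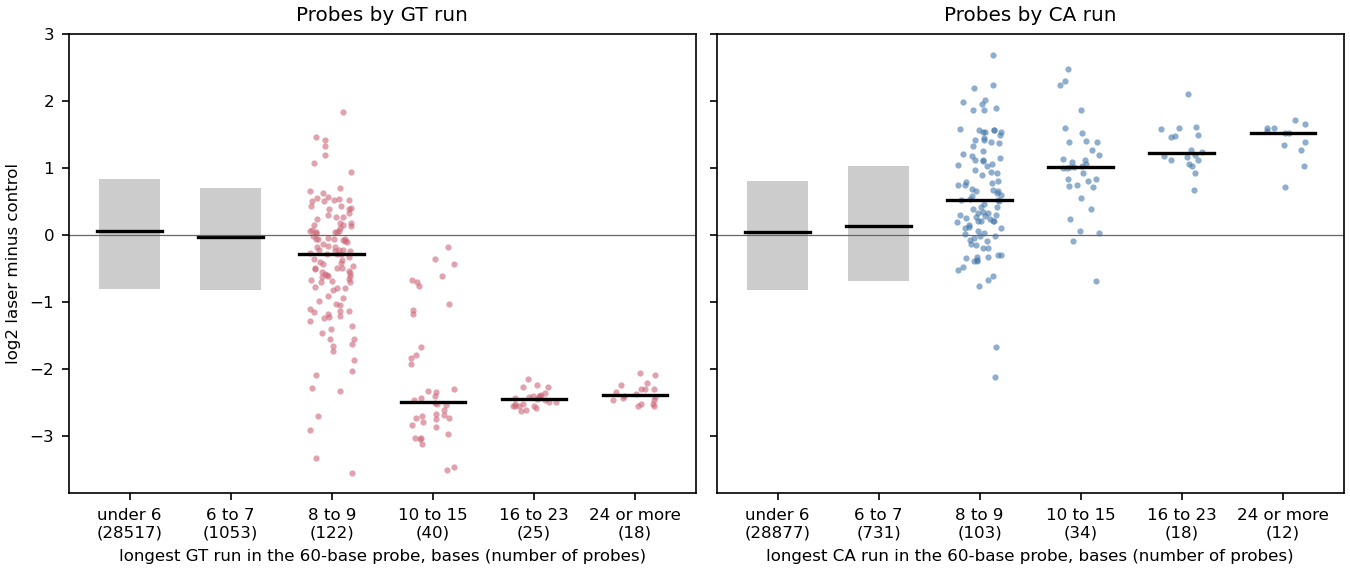
Log2 laser minus control of single probes by the length of the longest GT run (left) and CA run (right) in the probe, in bases, with the number of probes in parentheses. Points are probes, black bars medians, and grey boxes, drawn for the classes with the most probes, leave out the top and bottom 10% of probes. From 16 bases on, all probes with a GT run lie below -2, and probes with a CA run lie above 0.

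Genes that have both kinds of probe allowed the same gene name to be read by other letters. For Dapk2, Faslg, Pdgfa, Pkib and Slc1a4 the probe with a run and the other probe are assigned to different transcript records. Whether the letters or the transcript set the difference between such probes was not tested. For 21 genes with a probe of each kind, the probe with a GT run of 10 or more bases was lower for 17 and higher for none (median -2.41). The brightest probe of the same genes without a run was lower for 1 and higher for 2 (median 0.02), ranging from -1.69 for Gca to 1.31 for Serpinb8. Some of these other probes were near the floor in control, at -7.01 for Acbd4, -7.31 for Slc1a4 and -7.92 for Spata6l. The lowest signal well above background was -7.44 to -6.73 on control arrays, so a fall could hardly show on such probes. Others were brighter, at 1.55 for Pdgfa, -0.78 for Gca and -1.74 for Dapk2. Pdgfa, a growth factor for mesenchymal cells, was the widest split among the named genes. Its GT-run probe read 5.43, 4.85, 3.70 and 5.19 in control and 2.76, 2.48, 2.31 and 1.90 in laser bone (difference -2.43). A second Pdgfa probe read 1.06, 2.19, 2.15 and 0.81 in control and 2.47, 2.68, 2.83 and 2.79 in laser bone (difference 1.14, SE 0.29, adjusted p = 0.0248), so the sign for this gene turned with the probe. Without run probes Dapk2 was at -0.47 (adjusted p = 0.331), Faslg at -0.52 (adjusted p = 0.0589), Pkib at -0.35 and Slc1a4 at -0.10, and none of these 4 passed. Suv39h2, Csf3, Bmp5 and Cldn15 have no kept probe without a run, so no second probe was there to compare.

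**Figure D3:**
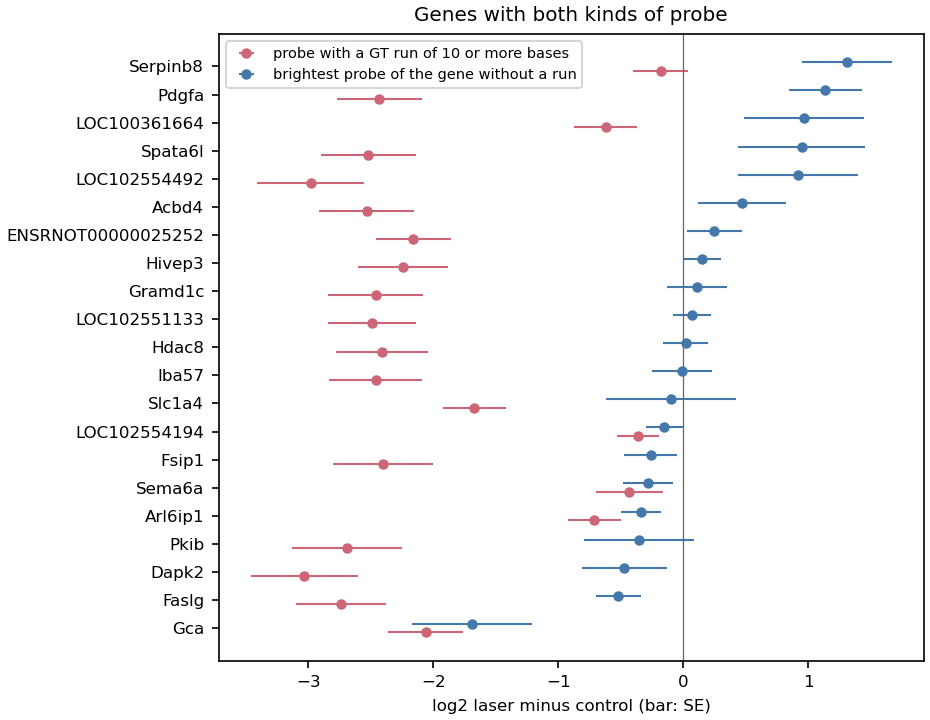
Log2 laser minus control (x axis, with SE as bars) for the 21 genes measured by a probe with a GT run of 10 or more bases (red) and by another probe without a run (blue). Blue points scatter around 0, some of them from probes near the floor, while 17 of the red points were called lower. For Pdgfa the 2 probes lie on opposite sides of 0.

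With all probes that hold a GT or CA run of 8 or more bases left out, a setting chosen after seeing the data, 2009 of 22463 genes were higher and 2812 lower. The share of all calls was thus little touched, but the top of the ranking was: GT runs stood behind 22 of the 50 largest falls with a symbol and 77 of the 322 genes called lower at least 4-fold. Genes named below whose probe holds such a run are marked where they appear.

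Falls on probes without runs named another set of genes, of which 4 are known from fat tissue. Prp15, a proline-rich protein gene, was 0.57, -0.70, -2.76 and 0.62 in control and -3.04, -5.07, -4.26 and -4.38 in laser bone (difference -3.62, SE 0.74, adjusted p = 0.0128). Ecel1, a membrane peptidase best known in nerve cells, was 1.90, 0.59, -1.32 and 2.16 against -1.68, -3.37, -2.88 and -2.31 (difference -3.39, SE 0.67, adjusted p = 0.0115). In both, control replicate 3 stood 2 or more units below the other controls on average and still above every laser array.

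Those 4 are Slc7a10, Mrap, Thrsp and Gys2. Slc7a10, an amino acid transporter of adipocytes and astrocytes, was -2.68, -3.21, -3.06 and -1.84 in control and -5.72, -7.01, -4.13 and -6.40 in laser bone (difference -3.12, SE 0.65, adjusted p = 0.0140). Mrap, the accessory protein of melanocortin receptors, was -0.93, -2.21, -3.13 and -1.13 against -3.76, -5.51, -4.59 and -4.98 (difference -2.86, SE 0.53, adjusted p = 0.00955). Thrsp, which encodes the lipogenic protein Spot 14, was -3.27 to -0.85 against -5.59 to -4.04 (difference -2.62, SE 0.59, adjusted p = 0.0171). Gys2, a glycogen synthase of liver and fat, was -1.99, -3.98, -3.94 and -1.56 against -5.16, -6.91, -5.40 and -6.25 (difference -3.06, SE 0.78, adjusted p = 0.0232). The summed level of the 9 measured marrow fat markers was 52.1, 33.7, 29.8 and 43.2 on the control arrays and 25.5, 31.0, 20.7 and 19.4 on the laser arrays, with 7 of the 9 called lower and, outside the naming rule, Fabp4 at -0.06 and Lpl at 0.17 not called. With normexp background correction Slc7a10, Gys2, Mrap and Thrsp were at -1.48, -1.42, -1.73 and -1.61 and still passed. How far fat cell content sets these 4 falls was not tested.

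Ppp1r1a, an inhibitor of protein phosphatase 1 found in muscle, brain and fat, was -0.46, 0.12, -2.58 and -1.73 in control and -3.14, -4.10, -3.75 and -4.79 in laser bone (difference -2.79, SE 0.75, adjusted p = 0.0271). The summed level of 13 skeletal muscle markers was 12.2 on control replicate 1 and 0.842 to 1.15 on the other controls, against 0.686 to 2.52 on the laser arrays. On bur replicate 1 this sum was 7.94, against 0.632 to 0.86 on the other bur arrays. Ppp1r1a was at -1.6 on bur replicate 1, against -4.8 to -4.32 on the others. Control replicate 2 had the highest summed level of 12 meningeal markers, 13 against 2.78 to 4.67 on the other controls. Muscle and meningeal content was not tested as a source. Of the 14 largest falls reported here 11 passed whichever array was left out, and Gys2, Ppp1r1a and Thrsp did not.

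Described by gene lists, the shares of rises were highest for secretory pathway genes (16 of 43), metal transporters (8 of 27), annexins, galectins and S100 genes (9 of 32) and guidance genes (7 of 30). The shares of falls were highest for autophagy genes (9 of 36), purine receptors and ectonucleotidases (7 of 28), amino acid transporters (6 of 26) and neurotrophin genes (3 of 14). Each list is read against the 9.26% and 13% of all genes called higher and lower, and no difference between a list and all genes was tested. Counts of most lists moved with single arrays, lowest without control replicate 1 or 4 or without laser replicate 2 or 3, and mostly highest without control replicate 3. Of all 131 named genes reported here, 38 kept their call whichever array was left out. Many named genes are dim, and with normexp background correction, which adds an offset to every intensity, 28 of the 131 lost their call and 2 turned sign. The call was lost by 42 without a detection filter and by 67 with only the 2 groups in the fit, and values under other settings that ended a call are given beside the genes most moved by them.

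**Figure D4:**
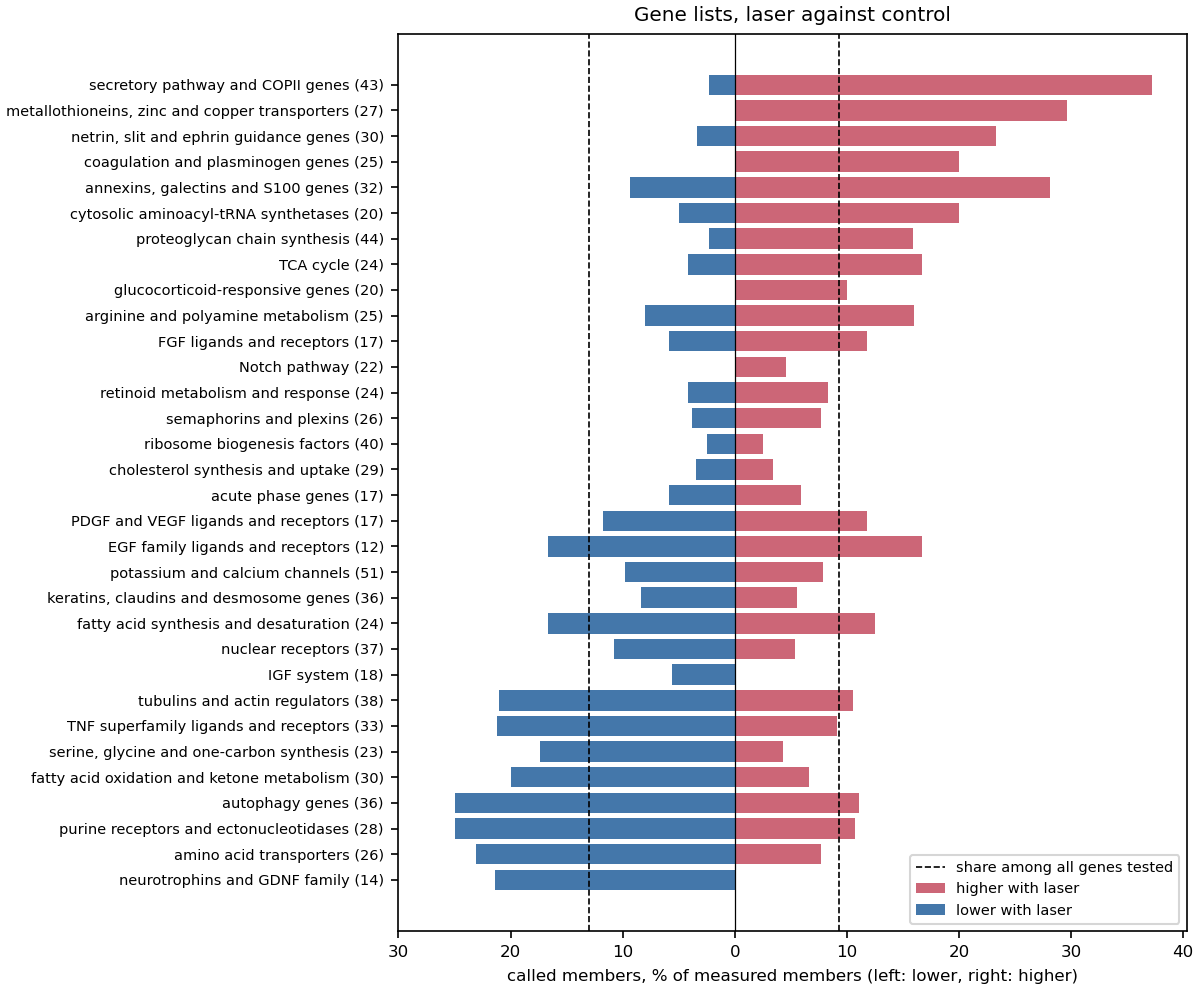
Members called in laser against control as a percentage of the measured members of each list (number in parentheses), lower to the left and higher to the right, with dashed lines at the shares among all genes, 13% lower and 9.26% higher. Secretory pathway genes reach furthest to the right, with 16 of 43 higher, and autophagy genes and purine receptors furthest to the left, with 9 of 36 and 7 of 28 lower.

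Of 25 measured genes of clotting and of fibrin removal 5 rose and none fell, although the median of the list was 0.10, near that of all genes. Plau, the urokinase plasminogen activator, was -5.92, -4.86, -4.52 and -6.27 in control and -3.74, -3.24, -3.45 and -2.97 in laser bone (difference 2.04, SE 0.40, adjusted p = 0.0115). Tfpi2, an inhibitor of plasmin and of tissue factor complexes, rose by 1.73 (SE 0.37, adjusted p = 0.0147). Proc, the anticoagulant protein C, was not well above background in control, and laser bone was at least 2.40-fold higher. The bound sets the laser mean against the floor of each control array, the higher of its own signal and the lowest signal well above background. Such bounds, here and below, compare means without an error term and hold only for the intensities as processed here. Differences under other settings can lie below them, as they did for Proc. With normexp Tfpi2 and Proc were at 0.31 and 0.09 and did not pass, and in the deposited log2 values they were at 0.86 and 0.54 and passed. The rises ran from 3 to 8 when arrays were left out. In the other direction 5 fell without control replicate 3, 3 fell and 4 rose with the replicate block, and 3 fell and 8 rose with array weights.

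The secretory pathway held the largest share of rises among the lists. Of 43 measured genes of the endoplasmic reticulum, COPII and COPI vesicles, 16 rose and 1 fell, with a median of 0.51, and 37 of 43 differences were positive. Sec24d, a cargo adaptor of the COPII coat that is needed for collagen export, was -1.99, -1.47, -1.19 and -2.20 in control and -0.76, -0.19, -0.17 and -0.57 in laser bone (difference 1.29, SE 0.23, adjusted p = 0.00857). Lman1, a cargo receptor for clotting factors, rose by 1.23 (SE 0.29), and the small GTPase Arf4, which works at the Golgi, by 1.17 (SE 0.28). Creb3l1, a transcription factor released from the endoplasmic reticulum that drives collagen secretion in osteoblasts, was 0.97, 2.34, 1.98 and 1.17 against 2.42, 2.51, 2.89 and 3.04 (difference 1.1, SE 0.31, adjusted p = 0.0293). Creb3l2, a close relative, was the only member that fell (difference -0.45). Sec24d passed whichever array was left out. With array weights Creb3l1 was at 0.72 and did not pass. The number of rises was 1 without control replicate 1, laser replicate 2 or laser replicate 3, and 25 without control replicate 3.

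**Figure D5:**
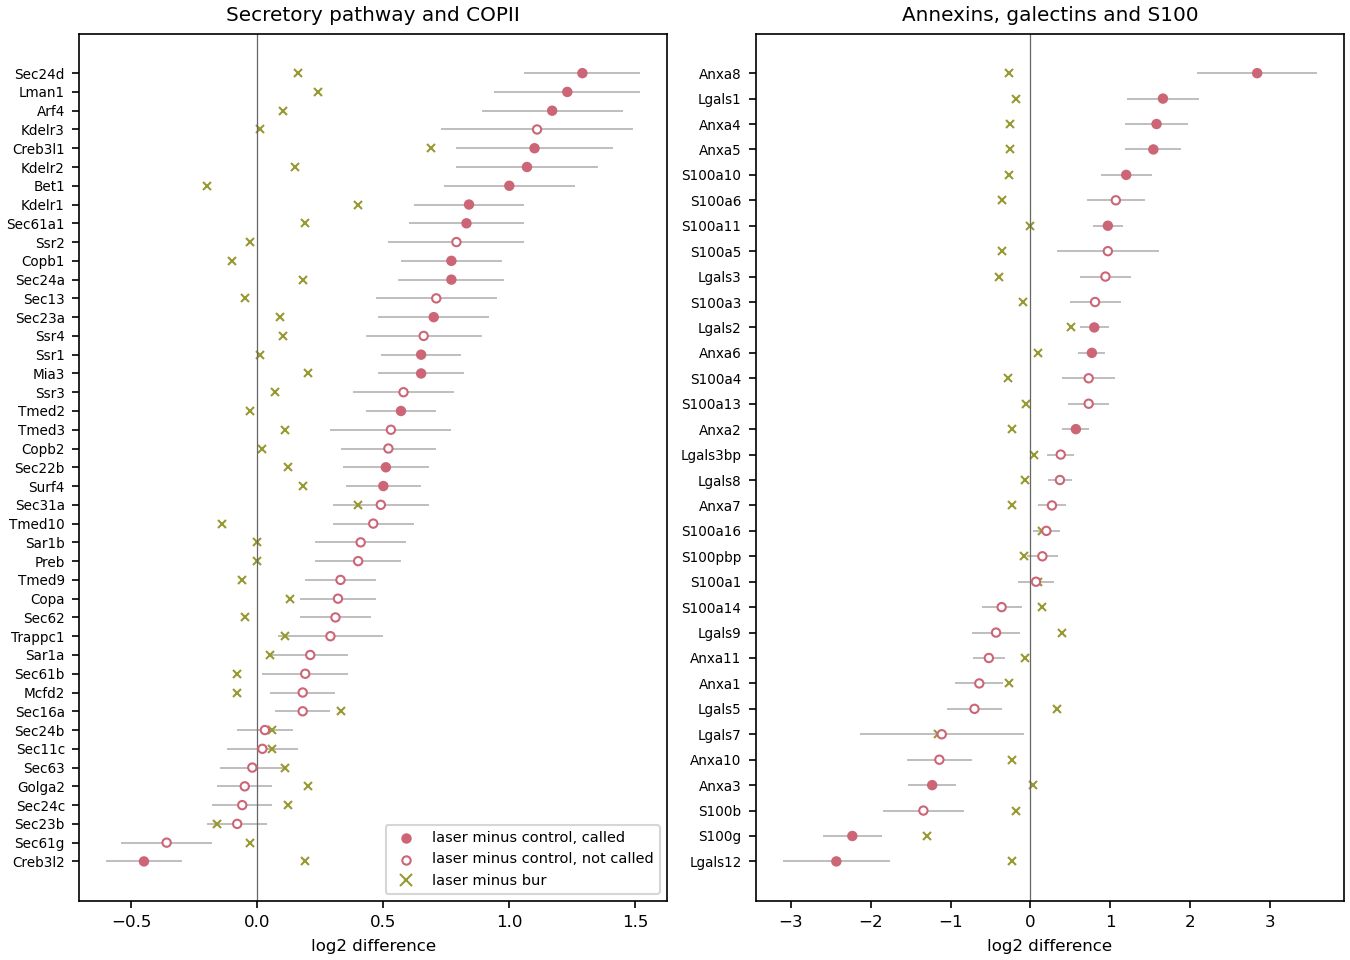
Log2 laser minus control with its SE for every measured member of the secretory pathway list (left, 43 genes) and of the annexin, galectin and S100 list (right, 32 genes). Filled circles are members called by limma, open circles are not, and crosses give laser minus bur. Most secretory genes lie between 0 and 1.3 with crosses near 0, while the right panel spreads from -2.43 to 2.84.

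Enzymes that build the sugar chains of proteoglycans followed in part. Of 44 measured members 7 rose and 1 fell (median 0.34). Ext2, a polymerase of heparan sulfate chains, rose by 1.05 (SE 0.22, adjusted p = 0.0143), and Ugdh, which makes the precursor of glycosaminoglycans, by 0.84 (SE 0.17, adjusted p = 0.0133). The enzymes that make the sulfate donor moved apart. Papss2, the form used in cartilage and bone, was -2.45, -1.41, -1.33 and -2.54 in control and -1.01, -0.53, -0.50 and -0.92 in laser bone (difference 1.19, SE 0.29, adjusted p = 0.0202). Papss1 was 1.03, 0.65, -0.11 and 1.61 against 0.17, -1.14, -0.75 and -0.78 (difference -1.42, SE 0.34, adjusted p = 0.0200), with the laser array of highest signal above control replicate 3. The list count of rises ran from 2 to 17 when arrays were left out.

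Of 27 measured metallothioneins and transporters of zinc and copper 8 rose and none fell, with a median of 0.42, and 19 were not called, 7 of the 27 being negative. They were the zinc transporters Slc39a14, Slc30a4, Slc39a7, Slc30a6, Slc30a7 and Slc30a5, the copper pump Atp7a and the copper chaperone Atox1, the last 4 outside the naming rule and named after their values were seen. Slc39a14, which takes up zinc, manganese and iron, was -5.65, -4.82, -3.76 and -5.76 in control and -3.43, -3.18, -2.83 and -3.04 in laser bone (difference 1.88, SE 0.38, adjusted p = 0.0128). Slc30a4, which loads zinc into vesicles, was -5.50, -3.63, -3.19 and -4.05 against -2.41, -2.55, -2.05 and -2.44 (difference 1.73, SE 0.39, adjusted p = 0.0171). In both genes the laser arrays lay close together and above every control. With normexp they were at 0.68 and 0.82 and still passed. Slc39a7, which releases zinc from the endoplasmic reticulum, rose by 0.92 (SE 0.19), and Slc30a6, a zinc importer of the Golgi, by 0.77 (SE 0.18). The Slc30a6 probe holds a CA run of 8 bases, and without such probes 7 members rose. The metallothionein gene Mt1, a zinc store, was at -0.23 (SE 0.46, adjusted p = 0.744). The number of rises was 2 without laser replicate 3 and 11 without control replicate 3.

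The metal response element, read as TGCACNC or TGCGCNC on either strand, is the letters that the zinc-sensing factor MTF1 is known to bind. It was found in 15 of the 24 members' promoters matched in RefSeq (62.5%), against 24.2% of all 33469 promoters of that length, and in 3 of the 6 matched members that rose. Metallothioneins, its textbook targets, are in the list, so part of this excess was built in. Mt1, Mt2A, Mt3 and Mt4 all have matches and none passed. Other lists were searched for other letters. AP-1 (TGANTCA) was in 7 of 18 clotting promoters (38.9%, against 7.33% of all), and in 1 of 3 that rose. ERSE and ERSE-II were in 0 of 37 secretory promoters, against 0.0657% and 0.0508% of all. With letters this rare none was likely to be found in a list of that size, so nothing follows from their absence. Slc30a4 rose and has 3 matches, and Mt1, which did not pass, has 6. Both promoters are shown to set a member that rose beside the textbook target, with matches in capitals, over the 300 bases around the start of the gene in GRCr8. A match is a description of the letters, not evidence of binding. Slc30a4 lies at chr3:130228839-130229138 and Mt1 at chr19:10832926-10833225, both on the minus strand and written 5′ to 3′ along the gene.
Slc30a4: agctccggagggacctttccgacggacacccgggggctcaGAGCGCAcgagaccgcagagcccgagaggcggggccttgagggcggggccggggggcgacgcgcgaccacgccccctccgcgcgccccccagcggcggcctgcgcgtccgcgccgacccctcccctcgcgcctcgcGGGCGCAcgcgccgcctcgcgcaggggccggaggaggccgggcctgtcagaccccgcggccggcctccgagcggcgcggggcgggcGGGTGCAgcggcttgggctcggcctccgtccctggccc
Mt1: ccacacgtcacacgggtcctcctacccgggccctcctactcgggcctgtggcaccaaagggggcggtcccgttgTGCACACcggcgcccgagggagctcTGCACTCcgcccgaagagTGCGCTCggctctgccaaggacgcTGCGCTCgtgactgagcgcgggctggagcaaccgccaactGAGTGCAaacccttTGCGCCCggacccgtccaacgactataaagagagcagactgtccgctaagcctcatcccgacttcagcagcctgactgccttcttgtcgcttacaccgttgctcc

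Calcium-binding annexins and S100 proteins and the galectins, sugar-binding proteins of matrix and immune cells, spread in both directions. Of 32 measured members 9 rose and 3 fell (median 0.37). Anxa8, an annexin of epithelial and wound tissue, was -5.59, -5.05, -4.94 and -8.82 in control and -2.82, -3.53, -3.47 and -3.23 in laser bone (difference 2.84, SE 0.75, adjusted p = 0.0258). Lgals1, a galectin of stromal cells, was 2.51, 3.21, 4.37 and 1.80 against 4.31, 4.62, 5.04 and 4.58 (difference 1.66, SE 0.45, adjusted p = 0.0270), and 1 laser array lay below the highest control. Lgals12, a galectin of fat cells, fell by 2.43 (SE 0.67, adjusted p = 0.0280), with the marrow fat markers given above. S100g, the calcium carrier calbindin-D9k, was not well above background with laser, at least 2.71-fold lower than control. With normexp S100g was at -0.36 and did not pass, and Anxa8 and Lgals12 were at 0.87 and -1.12 and passed. The rises ran from 1, without control replicate 1 or laser replicate 2, to 15.

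Of the growth factor lists, 23.5% of PDGF and VEGF genes and 33.3% of EGF family genes were called. For FGF genes it was 17.6% and for the IGF system 5.56%, against 22.3% of all genes. In the PDGF and VEGF list 13 of 17 differences were positive (median 0.54). Vegfa, which drives vessel growth, was 0.07, -0.02, 0.15 and -0.57 in control and 0.70, 0.68, 1.25 and 1.50 in laser bone (difference 1.13, SE 0.32, adjusted p = 0.0312). Vegfc, which drives lymphatic growth, was 0.12, -0.23, -0.47 and 0.19 against -0.89, -1.66, -1.55 and -1.30 (difference -1.25, SE 0.20, adjusted p = 0.00464). The groups did not overlap for either, so the VEGF ligands moved in opposite directions. Pdgfb, a growth factor from platelets and endothelium, was not well above background in control and at least 1.54-fold higher with laser, but with normexp its difference was 0.00. As the mean of its probes, Vegfa was at 0.83 and did not pass. With Pdgfa on its GT-run probe, 2 of 17 PDGF and VEGF genes rose and 2 fell, and without run probes 3 rose and 1 fell. Without control replicate 3 the rises in this list numbered 9, and none remained without control replicate 1, control replicate 4 or laser replicate 2.

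Of 12 EGF family genes 2 rose and 2 fell. Erbb3, a receptor for neuregulins, was -4.91, -3.73, -3.70 and -5.42 in control and -2.95, -2.23, -2.41 and -2.85 in laser bone (difference 1.83, SE 0.37, adjusted p = 0.0124), and it passed whichever array was left out. Hbegf, an EGF receptor ligand shed in wounds, rose by 1.04 (SE 0.31), while the ligand Nrg4 fell by 0.97 (SE 0.25). With normexp Hbegf was at 0.05 and Nrg4 at -0.49, and in the deposited log2 values Hbegf was at 0.33, none of which passed. Tgfa, another EGF receptor ligand, fell by 0.58 on its brightest probe, but its 3 probes pointed apart and their mean was at 0.05. Of 17 FGF ligands and receptors 2 rose and 1 fell. Fgf1 rose by 1.58 (SE 0.38, adjusted p = 0.0195) on its brightest probe and was at -0.22 on its other probe. Spry2, a feedback inhibitor of FGF signalling, rose by 0.91 and the decoy receptor Fgfrl1 fell by 0.60. As the mean of its probes Fgf1 was at 0.68, and with normexp Spry2 was at 0.03, and neither passed. In the IGF system 1 of 18 was called: the binding protein Igfbp1 fell by 0.46 (SE 0.15, adjusted p = 0.0487, and 0.0696 with the replicate block).

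Netrins, slits, ephrins and their receptors steer growing axons and vessels. Of 30 measured genes of this list 7 rose and 1 fell (median 0.54). Unc5c, a netrin receptor, was -7.07, -6.59, -6.54 and -6.82 in control and -5.68, -5.83, -5.33 and -5.62 in laser bone (difference 1.14, SE 0.20, adjusted p = 0.00782), though its signal was well above background on only 1 control array. Epha2, an ephrin receptor, was -0.84, -0.51, -0.20 and -1.45 against 0.22, 0.12, 0.17 and -0.14 (difference 0.84, SE 0.24, adjusted p = 0.0311). The slit receptor Robo1 rose by 1.33 (SE 0.41, adjusted p = 0.0400, and 0.0528 with the replicate block). Ephb1 was not above background on any control array and on 1 laser array only, so its difference of 1.43 has no bound. With normexp Unc5c was at 0.03 and Ephb1 at -0.05, and as the mean of its probes Robo1 was at 0.92, and none of these passed. The rises ran from 1, without control replicate 4, laser replicate 2 or laser replicate 3, to 16. Of 26 semaphorin and plexin genes 2 rose, Sema5a by 1.11 and Plxnb2 by 1.09, and Plxnc1, a plexin of leukocytes, fell by 1.15. With normexp Sema5a was at 0.49 and did not pass. The Notch ligand Jag1 rose by 1.09 and was the only call among 22 Notch genes.

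Among neurotrophins and the GDNF family, 3 of 14 fell and none rose. Nrtn, the ligand neurturin, was 0.26, -0.63, -1.27 and 0.43 in control and -1.21, -2.65, -2.18 and -2.14 in laser bone (difference -1.74, SE 0.38, adjusted p = 0.0154), with 1 laser array above the lowest control. Gfra3, a receptor of that family on sensory neurons, fell by 2.10 (SE 0.52, adjusted p = 0.0213). Ntrk2, the BDNF receptor, fell by 1.16 on its brightest probe, while 1 of its 2 other probes was at 1.29. With normexp Gfra3 was at -0.35, and as the mean of its probes Ntrk2 was at -0.31, and neither passed. Markers of nerve tissue varied without a common direction: of 15 Schwann cell and myelin markers 2 were lower, with a summed level of 1.88 to 7.34 in control and 1.95 to 3.99 in laser bone, and of 11 neuron markers 1 was higher and 1 lower. The part of nerve content in these falls was not tested.

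Of 30 genes of fatty acid oxidation 6 fell and 2 rose. Ucp3, a mitochondrial carrier of muscle and brown fat, was -3.74, -4.46, -4.87 and -3.43 in control and -5.27, -5.95, -6.12 and -5.70 in laser bone (difference -1.63, SE 0.33, adjusted p = 0.0127). Its relative Ucp2, found in many leukocytes, fell by 1.21 (SE 0.35), the ketone enzyme Bdh1 by 0.82 (SE 0.19) and the regulator Ppara by 0.66 (SE 0.20). Ppara was at -0.28 with normexp, and Bdh1 at -0.44 as the mean of its probes, and neither passed. Of 24 genes of fatty acid synthesis 4 fell and 3 rose. Lpin1, a lipid phosphatase, fell by 1.17 (SE 0.24) on its brightest probe, its other probes were at 0.14 and -0.17, and the mean of all 3 did not pass. Scd2, a desaturase of tissues other than liver, was -0.29, 0.79, 0.37 and -0.53 against 0.65, 1.81, 1.39 and 0.83 (difference 1.08, SE 0.33, adjusted p = 0.0383). Elovl3, an elongase of brown fat and skin, was not well above background in control and rose by at least 2.00-fold, on a probe with a CA run of 8 bases. With normexp Elovl3 was at 0.11 and in the deposited log2 values at 0.49, below that bound, and neither passed. Pparg, the main regulator of fat cells, fell by 0.94 (SE 0.22, adjusted p = 0.0197). In cholesterol synthesis 1 of 29 rose, Mvk by 0.58, and 1 fell, Fdft1 by 0.49. With array weights Scd2 was at 0.75 and with normexp Mvk at 0.21, and neither passed.

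Of 24 TCA cycle genes 4 rose and 1 fell. The named rises were small: Idh1 by 0.86 (SE 0.24), Aco1, which also senses iron, by 0.65 (SE 0.20), Idh3B by 0.54 (SE 0.17) and Dlat by 0.50 (SE 0.15). None of the TCA genes called higher kept its call without control replicate 1 or 4 or laser replicate 2 or 3. Of 25 genes of arginine and polyamine metabolism 4 rose and 2 fell. Arg2, a mitochondrial arginase, was not well above background in control and rose by at least 1.80-fold. Sat1, which breaks down polyamines, rose by 0.85 and Agmat by 0.83 (SE 0.26, adjusted p = 0.0418, and 0.0506 with the replicate block), while Ddah1, which clears inhibitors of nitric oxide synthesis, fell by 0.89. The folate enzymes of cytosol and mitochondria moved apart, as Aldh1l1 fell by 1.55 (SE 0.36, adjusted p = 0.0183) and Aldh1l2 rose by 0.95 (SE 0.28, adjusted p = 0.0357). Tyms, which makes thymidylate in dividing cells, fell by 0.92 and the serine carrier Sfxn1 by 0.71. With normexp Arg2 was at -0.06, Agmat at 0.38, Tyms at -0.64 and Idh3B at 0.45, and as the mean of probes Ddah1 was at -0.50 and Sfxn1 at -0.56, and none of these passed. In that list of 23 genes 4 fell and 1 rose.

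Amino acid transporters fell in 6 of 26 cases and rose in 2. Beside Slc7a10, given above, Slc38a5, a glutamine carrier of red cell precursors, was 2.89, 2.50, 0.97 and 3.37 in control and 1.34, -0.61, -0.37 and -0.11 in laser bone (difference -2.37, SE 0.58, adjusted p = 0.0211), with laser replicate 1 above control replicate 3. Slc43a1, a carrier of large neutral amino acids, fell by 1.45 (SE 0.42), and with the marrow score as a covariate it was at 0.09. Slc1a4 fell by 1.67 on a probe with a GT run. Of 20 cytosolic aminoacyl-tRNA synthetases 4 rose and 1 fell, all by small amounts: Eprs by 0.67, Rars by 0.63, Tars by 0.49 and, outside the naming rule, Cars by 0.45 upward, and Farsa downward by 0.58. Of 40 ribosome biogenesis factors 1 rose, the RNA polymerase I subunit Polr1a by 0.96 (SE 0.21), and 1 fell, its factor Ubtf (difference -0.78). With normexp Polr1a was at 0.33 and did not pass.

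The TNF family was called lower in 7 of 33 members and higher in 3. Tnfrsf12a, which encodes the TWEAK receptor Fn14 of injured tissue, was -3.71, -2.20, -1.24 and -4.95 in control and -1.28, -0.92, -1.26 and -1.08 in laser bone (difference 1.89, SE 0.61, adjusted p = 0.0456). Control replicate 3 lay among the laser arrays, the call was lost without any 1 array other than control replicate 2 or 3, and with the marrow score as a covariate the value was -0.08. Ltb, a lymphotoxin of lymphocytes, fell by 1.83 (SE 0.45, adjusted p = 0.0208), and Tnfrsf14, a lymphocyte receptor, by 1.48 (SE 0.42, adjusted p = 0.0313). The summed level of B cell markers was 8.57 to 31.5 in control and 4.20 to 8.09 in laser bone, and its part in these falls was not tested. Faslg fell by 2.74 on a GT-run probe and did not pass on its other probe.

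Of 28 purine receptors and ectonucleotidases 7 fell and 3 rose. Adora1, the adenosine A1 receptor, was -1.95, -2.48, -2.93 and -1.78 in control and -3.34, -4.78, -4.41 and -3.90 in laser bone (difference -1.82, SE 0.35, adjusted p = 0.0110), and passed whichever array was left out. Entpd2, an enzyme that removes extracellular ATP, was -1.30, -1.42, -2.17 and -1.43 against -2.16, -2.98, -3.16 and -3.78 (difference -1.44, SE 0.31, adjusted p = 0.0156), with its highest laser array next to control replicate 3. P2ry4, a receptor for UTP, fell by 1.53 (SE 0.40), while Panx3, a channel that lets ATP out, rose as given above. Among 51 potassium and calcium channel genes 4 rose and 5 fell. Kcnmb1, the channel subunit typical of smooth muscle, was not well above background in control and rose by at least 2.47-fold, and 3 of 11 pericyte and smooth muscle markers rose too, with a summed level of 2.82 to 8.07 in control and 8.08 to 10.7 in laser bone. Kcne3 rose by 1.76 (SE 0.47), and Kcnk5 and Cacna1e fell by 1.45 and 1.39. With normexp P2ry4 was at -0.29, Kcnmb1 at 0.03 and Cacna1e at -0.34, and none of these passed.

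Autophagy genes were called in both directions, with 9 of 36 lower and 4 higher and a median of 0.00. Gabarap, which builds autophagosomes, was 2.83, 3.22, 3.36 and 2.42 in control and 3.58, 4.03, 3.92 and 3.82 in laser bone (difference 0.88, SE 0.19, adjusted p = 0.0156). Bnip3l, which clears mitochondria from maturing red cells, was 4.37, 3.92, 3.21 and 4.60 against 3.28, 2.68, 2.86 and 2.80 (difference -1.12, SE 0.26, adjusted p = 0.0185), and the erythroid marker sums given above moved the same way. Optn, an autophagy receptor, fell by 0.87, and Atg9b, not well above background in control, rose by at least 1.57-fold. Of 38 tubulins and actin regulators 8 fell and 4 rose. Tuba4a, a tubulin abundant in platelets and red cell precursors, was 5.51, 4.86, 3.75 and 5.62 against 4.16, 2.81, 2.70 and 2.92 (difference -1.79, SE 0.46, adjusted p = 0.0241). Its laser replicate 1 lay above control replicate 3, as did that of Bnip3l. Tuba8 fell by 1.87 and Stmn1, a tubulin-binding protein of dividing cells, by 1.17, while Tubb6 rose by 1.40. Atg9b was at 0.05 with normexp and Optn at -0.35 as the mean of its probes, and neither passed.

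Of the hormone and vitamin lists, 10% of glucocorticoid-responsive genes, 12.5% of retinoid genes and 16.2% of nuclear receptors were called, against 22.3% of all genes. Sgk1, a kinase induced by glucocorticoids and serum, was -2.16, -1.62, -1.10 and -1.93 in control and -0.63, -0.28, -0.44 and -0.40 in laser bone (difference 1.27, SE 0.20, adjusted p = 0.00495), and it passed whichever array was left out. It and Tgm2, a transglutaminase that crosslinks matrix (difference 0.98, SE 0.28), were the only members called among 20 glucocorticoid-responsive genes. In the retinoid list 2 of 24 rose and 1 fell. Rarres2, which encodes the chemoattractant chemerin, rose by 1.28 (SE 0.42, adjusted p = 0.0475, and 0.0518 with the replicate block), and the receptor Rxrg fell by 1.20. Of 37 nuclear receptors 2 rose and 4 fell, among them Nr4a3, an early-response receptor, up by 1.77 (SE 0.57, adjusted p = 0.0447), and Nr3c2, the mineralocorticoid receptor, down by 0.97 (SE 0.22, adjusted p = 0.0180). Nr4a3 was at 0.10 with normexp and at 0.31 in the deposited log2 values, passed neither time, and of 12 arrays only 2 could each be left out without losing its call. Rxrg was at -0.42 with normexp and did not pass.

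Of 17 acute phase genes 1 rose and 1 fell. Ptx3, a pentraxin made locally in inflamed tissue, was -1.86, -1.28, -0.82 and -1.84 in control and -0.55, -0.48, -0.56 and -0.46 in laser bone (difference 0.94, SE 0.24, adjusted p = 0.0236). Lrg1, a glycoprotein also stored in neutrophils, was 4.25, 3.78, 2.25 and 4.25 against 2.59, 1.79, 1.25 and 2.26 (difference -1.66, SE 0.45, adjusted p = 0.0277), again with laser replicate 1 above control replicate 3. The neutrophil marker sum was 542 to 1410 in control and 221 to 706 in laser bone. Of 36 keratin, claudin and desmosome genes 2 rose and 3 fell. Krt79 fell by 1.70 (SE 0.36) and Krt80 by 1.36 (SE 0.45, adjusted p = 0.0492), and the claudin Cldn22 rose by 1.31 (SE 0.43, adjusted p = 0.0486). Cldn15, a claudin of epithelia, fell by 2.09 on a probe whose GT run is 24 bases long. With normexp Cldn22 was at 0.08 and Krt80 at -1.22, and neither passed. Krt80 passed in 3 of 12 other settings and kept its call without 2 of the 12 arrays, and Cldn22 passed in 5 of 11 and without 3.

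Markers of tissues next to bone are read against the 22.3% of all genes called in either direction. None of 13 skeletal muscle and none of 15 endothelial markers was called, 1 of 13 epidermal markers was higher, and the median was -1.07 for muscle and 0.26 for endothelium. Of 12 meningeal markers 1 was higher and 2 lower (25%, median -1.22), with Slc6a20 at -3.17, and of 11 pericyte and smooth muscle markers 3 were higher (27.3%). Of 15 fibroblast markers of periosteum and tendon 2 rose and 1 fell, and their summed level was 78.1, 54.8, 111 and 35.6 on the control arrays and 79.3 to 92.8 on the laser arrays, so controls ranged to both sides of laser. Of 9 astrocyte and oligodendrocyte markers 2 were higher and 1 lower (33.3%), and the larger rise, Mobp at 1.52, was read by a probe with a CA run of 26 bases, while its other probe was at -0.61.

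Against bur drilling, laser ablation gave no called gene among the 22718 (0%). At an unadjusted p under 0.05 there were 574, and the smallest adjusted p was 0.429. Of the 131 genes named by rule and reported here, 6 had an unadjusted 95% interval of laser minus bur that left out 0: S100g (-1.29, interval -2.11 to -0.47), Fgf1 (1.14, 0.31 to 1.96), Creb3l1 (0.69, 0.02 to 1.36), Unc5c (0.64, 0.20 to 1.09), Ptx3 (0.64, 0.12 to 1.17) and Tgfa (0.38, 0.05 to 0.71). None of these passed adjustment, and none of the differences from control described here can be called particular to the laser. Bur against control called 26.2% of genes, with the same control arrays. The median laser minus bur was 0.09 for the secretory list, -0.03 for the metal list and 0.13 for the guidance list, against 0.02 for all genes.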

How the data were processed

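RNA of 12 calvarial samples, 4 each of laser, bur and control, was labelled with Cy3 and read on 1-colour Agilent arrays, 1 array a sample. Per the file headers, the deposited intensity values were made with Agilent Feature Extraction 11.0.1.1, which subtracted background within each array, with probe positions in build rn4. Deposited log2 values served as an alternative. They stand in a table that is quantile-normalized by its name and in a comparison table that also holds the deposited p-values. Those p-values were not used for any result here.

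Control spots were dropped, log2 processed intensities were scaled to each array's 75th percentile, and probes detected (well above background) on 4 or more arrays were kept. The brightest probe stood for each gene. limma 3.58.1 in R 4.3.3 was fitted on all 12 arrays, without a block, with Benjamini-Hochberg adjustment over 22718 genes at 0.05, and was tested on simulated data. The number of arrays limits the precision.

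The members and gene lists were chosen with earlier results of these data known. Named genes were the 15 largest rises and 15 largest falls with a symbol that passed, did not overlap, were well above background on all 8 arrays and were in no bone or marrow list. Up to 4 passing members with the largest difference were added from each list. Genes that this rule named but that are withheld are not reported here. Same-numbered laser and control arrays deviated together (correlations 0.34, 0.18, 0.22 and 0.13, against -0.32 to 0.12 for different numbers). The replicate number was therefore taken to pair them in the replicate block, from the data and not from the labels. The main fit left this pairing out. On both slides the replicate number was also the row of the array, so pairing and position on the slide cannot be told apart. Alternatives covered background correction, scaling, filters, probe choice, array weights, the samples fitted, the block, a marrow covariate and leaving out each array. Leaving out probes with GT or CA runs was added after seeing the data. Probe stretches come from the array files, and promoters from RefSeq (GRCr8).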

Additional observations from a re-analysis of the deposited data

Results flagged for a closer look

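In 13 of 262 groups of 4 arrays (4.96%), 1 array of a named gene stood far from the other 3 of its group, and chance alone marks about 1 group in 20. Laser replicate 1 was the array apart for 5 genes. It was at -5.62 for Arg2 (other laser arrays -6.50 to -6.46), at -1.32 for Aldh1l2 (-0.81 to -0.74), at -3.88 for Mvk (-3.40 to -3.38), at -0.60 for Tuba8 (-2.32 to -2.19) and at 4.16 for Tuba4a (2.70 to 2.92). Laser replicate 2 was at -2.81 for Tgfa, against -2.42 to -2.34.

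Control replicate 3 was at -2.95 for Ext2 (other controls -3.85 to -3.75), at -1.63 for Ugdh (-2.37 to -2.31) and at -2.17 for Entpd2 (-1.43 to -1.30). Control replicate 1 was at -4.91 for Gfra3 (-5.96 to -5.87) and at -7.32 for Elovl3 (-8.98 to -8.70). Control replicate 4 was at -8.82 for Anxa8 (-5.59 to -4.94) and at 0.82 for Fdft1 (1.06 to 1.09).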

How the results depend on the processing

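As reported, 2103 genes were higher and 2958 lower with laser, and none differed from bur. Leaving out 1 array moved the counts from 449 to 3861 higher and from 796 to 4133 lower. The counts were 1187 higher with normexp background correction, 1199 higher without a detection filter (with 1 gene between laser and bur), 3534 higher with array weights, and 651 higher and 1107 lower with only the 2 groups in the fit. They were 2 higher and 0 lower with the marrow score as a covariate, and 4225 higher and 4616 lower, with 574 between laser and bur, at an unadjusted p under 0.05. With the replicate block they were 2455 and 3316, and of the named genes Agmat, Crabp2, Igfbp1, Rarres2 and Robo1 lost their call. Of the 131 named genes 28 lost their call with normexp, 16 with the mean of probes, 8 with the deposited log2 values and 7 with array weights. Normexp moved the share of higher calls from 41.6% to 32.7%. Signs turned for Ephb1 (-0.05) and Arg2 (-0.06) with normexp, for Tgfa (0.05) with the mean of its probes, for Tyms (0.02), Slc43a1 (0.09), Tnfrsf12a (-0.08) and Tnfrsf14 (0.08) with the covariate, and for Pdgfa (1.14) without run probes. Of the 131 named genes, 123 kept their direction in every setting and 38 their call whichever array was left out. For Pdgfa the probe differs, and for Tgfa probes that pointed apart were averaged. The cause of the turned signs was not tested. Slide as a block was not run, since each group lay on 1 slide.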
